A study of Mus musculus with 3 samples.

Results

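Interferon response genes were followed in cardiac myofibroblasts, the contractile and matrix-producing fibroblasts of the injured heart, as the cells left a plastic surface and returned to it. The set held 39 mouse genes taken by name as known interferon targets, in a list drawn up when earlier results of these data were known. At least 1 array had a signal well above background for 36 of them, among 15393 genes measured in all. Cxcl9 had 2 probes, neither well above background on any array, and no probe could be matched to Mx1 or Mx2. The 36 measured genes are called the interferon genes below.

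The cells came from infarcted hearts of male C57BL/6J mice, taken 3 days after the left anterior descending coronary artery had been tied off for good. The mice are given as 10 weeks old at ligation, and the sample records give 8 weeks. Heart cells settled on plastic overnight, and those with CD45, the common leukocyte antigen, were removed on a magnetic column, so every group shared the infarct, the attachment step and the depletion. No genotype, transgene or drug set the groups apart. Adherent myofibroblasts were grown on plastic plates, non-adherent myofibroblasts were then held in suspension on plates that prevent attachment, and re-adherent myofibroblasts were returned from suspension to plastic. The series describes each RNA sample as mixed from several hearts, and each state had 1 array (Agilent, 1 colour), so no difference below has a replicate check and no p-value is given. The states were sampled in sequence, so time in culture cannot be told apart from attachment. The paper also reports that most cells were lost during the suspension step through anoikis, the death of cells that lose attachment. Selection of surviving cells therefore cannot be told apart from attachment either.

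Interferons are secreted proteins that cells release when they sense foreign or misplaced nucleic acid. Type I and type III interferons act through JAK kinases on a complex that holds STAT2 and IRF9 and binds the interferon-stimulated response element (ISRE), whereas the response to interferon-gamma uses the gamma-activated site (GAS). The induced genes encode sensors of viral RNA, enzymes that degrade or edit RNA, GTPases, chemokines and the machinery that loads peptides onto MHC class I, and in the infarcted heart macrophages and fibroblasts are both known to respond.

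The promoters of 4 genes that the results turn on, and of Tap1, are shown to place the interferon element beside the values that follow. Each line gives the 250 bases before the annotated start, 5′ to 3′ on the strand of the gene, from RefSeq on GRCm38.p6, and the capitals mark every match to the ISRE core on either strand, which was searched as GAAA, any 2 bases and GAAA again. Cxcl10 (chr5:92348890-92349139, minus strand) and Rsad2 (chr12:26456453-26456702, minus strand) were the genes with the largest differences between non-adherent and adherent cells. Isg15 (chr4:156200819-156201068, minus strand) differed little, and Irgm1 (chr11:48871421-48871670, minus strand) was lower in non-adherent cells. Tap1 (chr17:34187306-34187555, plus strand) held no match.
Cxcl10: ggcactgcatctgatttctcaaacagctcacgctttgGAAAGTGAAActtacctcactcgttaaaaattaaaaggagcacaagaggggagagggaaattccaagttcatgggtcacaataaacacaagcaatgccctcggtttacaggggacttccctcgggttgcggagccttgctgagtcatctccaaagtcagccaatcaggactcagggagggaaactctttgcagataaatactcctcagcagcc
Rsad2: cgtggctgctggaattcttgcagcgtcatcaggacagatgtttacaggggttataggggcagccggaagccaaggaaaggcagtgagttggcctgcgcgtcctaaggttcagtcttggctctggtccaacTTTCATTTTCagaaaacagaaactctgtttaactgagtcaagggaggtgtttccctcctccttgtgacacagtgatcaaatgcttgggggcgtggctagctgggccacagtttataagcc
Isg15: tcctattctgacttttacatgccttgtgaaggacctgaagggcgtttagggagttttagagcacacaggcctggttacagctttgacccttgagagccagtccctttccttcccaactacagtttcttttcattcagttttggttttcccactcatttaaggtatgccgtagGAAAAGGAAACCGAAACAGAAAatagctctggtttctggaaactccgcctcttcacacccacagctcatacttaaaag
Irgm1: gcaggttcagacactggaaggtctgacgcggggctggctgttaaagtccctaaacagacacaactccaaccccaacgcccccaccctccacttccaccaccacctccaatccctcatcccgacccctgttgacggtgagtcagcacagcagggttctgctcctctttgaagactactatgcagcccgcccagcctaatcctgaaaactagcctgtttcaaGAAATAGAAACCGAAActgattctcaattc
Tap1: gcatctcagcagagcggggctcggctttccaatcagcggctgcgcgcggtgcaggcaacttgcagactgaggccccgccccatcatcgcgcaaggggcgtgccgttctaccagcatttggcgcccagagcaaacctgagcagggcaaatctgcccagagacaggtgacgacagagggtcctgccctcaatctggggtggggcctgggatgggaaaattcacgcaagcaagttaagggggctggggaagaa

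The match lay at bases -213 to -204 of Cxcl10, counted from the start base as 0, and at -120 to -111 of Rsad2 on the opposite strand. Isg15 held 3 overlapping matches between -78 and -57, and Irgm1 held 2 overlapping matches between -30 and -15. Tap1 and Psmb9 are read in opposite directions from starts 226 bases apart, and their windows of 300 bases (250 before and 50 after the start) shared 275 bases. Such a window was listed for 32 of the 39 genes. The ISRE core was found in 15 of them (46.9%, 95% Wilson interval 30.9% to 63.6%), against 3.99% of 27025 genes with a window. The looser core GAAANNGAA, which every ISRE match also holds, was found in 18 members (56.2%) and in 9.76% of all genes. The GAS core TTCNNNGAA, the same on both strands, was found in 8 members (25.0%) and in 9.55% of all genes. A match is a description of the letters only, and the genes were chosen as known interferon targets.

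**Figure D1:**
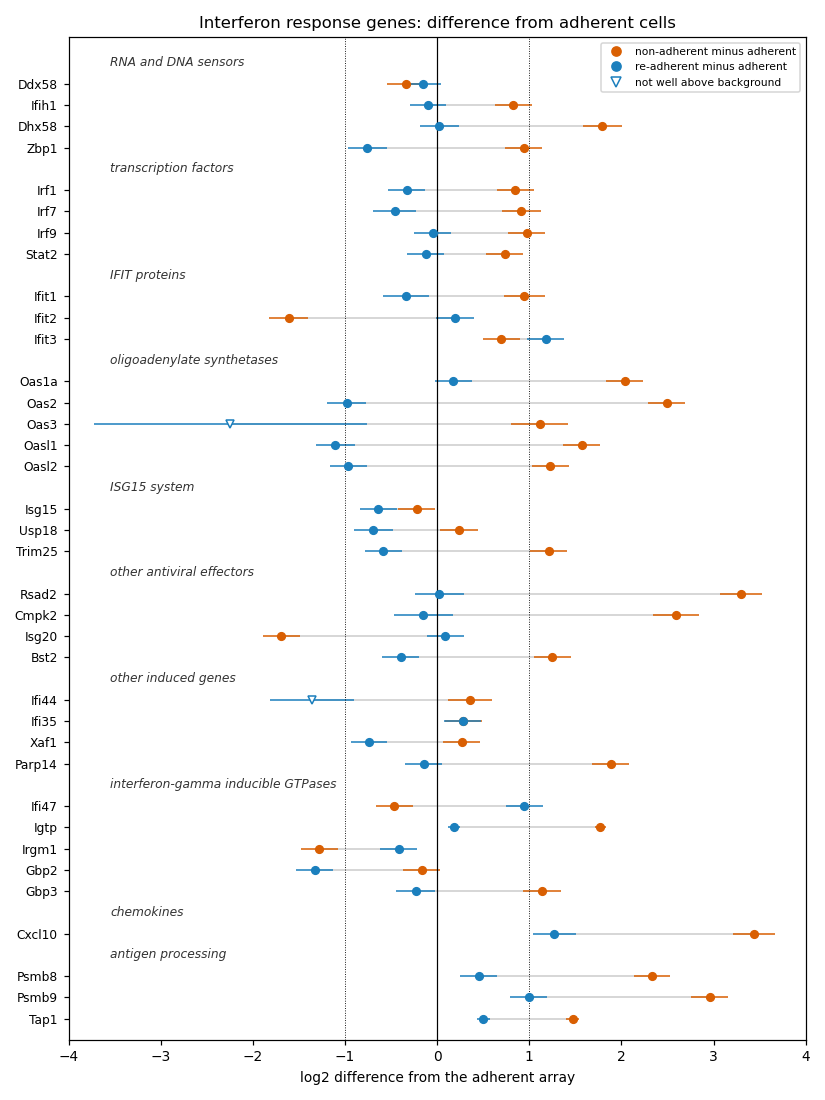
Difference of each of the 36 interferon genes from adherent myofibroblasts on the log2 scale, by role, for the non-adherent array (orange) and the re-adherent array (blue). Bars are the scanner software's technical error, open triangles mark a re-adherent signal not well above background, and dotted lines mark 2-fold. Of the 36 orange points, 17 lie beyond 2-fold to the right and 3 beyond 2-fold to the left (17.2% and 14.7% of all genes). Inside 2-fold lie 30 blue points, against 13894 of all 15393 genes.

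Of the 36 interferon genes 29 had a higher signal in suspension than in adherent cells, against 7202 of all 15393 genes, and 17 were beyond 2-fold. After return to plastic 30 had a lower signal, against 7133 of all genes, and 24 were beyond 2-fold. Signals are given as relative signal, the per cent of the 75th percentile of the array's own spots, and differences as log2 differences of these values. In non-adherent against adherent myofibroblasts 17 of the 36 genes (47.2%) were over 2-fold higher, where 17.2% of all measured genes were, and 3 (8.33%) were over 2-fold lower, where 14.7% of all genes were. From non-adherent to re-adherent cells 24 genes (66.7%) were over 2-fold lower, against 16.3% of all genes, and 3 were over 2-fold higher, against 15.6%. Both steps together, higher in suspension and then lower on plastic, were seen in 16 interferon genes (44.4%) and in 13.1% of all genes. The reverse order was seen in 2 interferon genes (5.56%) and in 11.2% of all genes. These steps share the non-adherent array, so an error on that array moves both in opposite directions.

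The median difference of the 36 genes was 0.96 for non-adherent against adherent cells, where the median of all genes was -0.07. It was -1.37 for re-adherent against non-adherent cells, where all genes had a median of 0.08. For re-adherent against adherent cells it was -0.16, beside 0.06 for all genes. At 4-fold, 7 interferon genes were higher in suspension, against 7.61% of all genes, and 0 were lower, against 5.34%. On return to plastic 8 were over 4-fold lower, against 6.05% of all genes, and 0 were higher, against 5.7%. The median technical error assigned by the software to a difference was 0.20 for the interferon genes. The difference exceeded its error in 35 of the 36 genes for the step into suspension, in 34 for the step back and in 25 for re-adherent against adherent cells. It covers error within an array only, and 8, 9 and 8 genes lay within their error of the 2-fold line in these pairs.

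**Figure D2:**
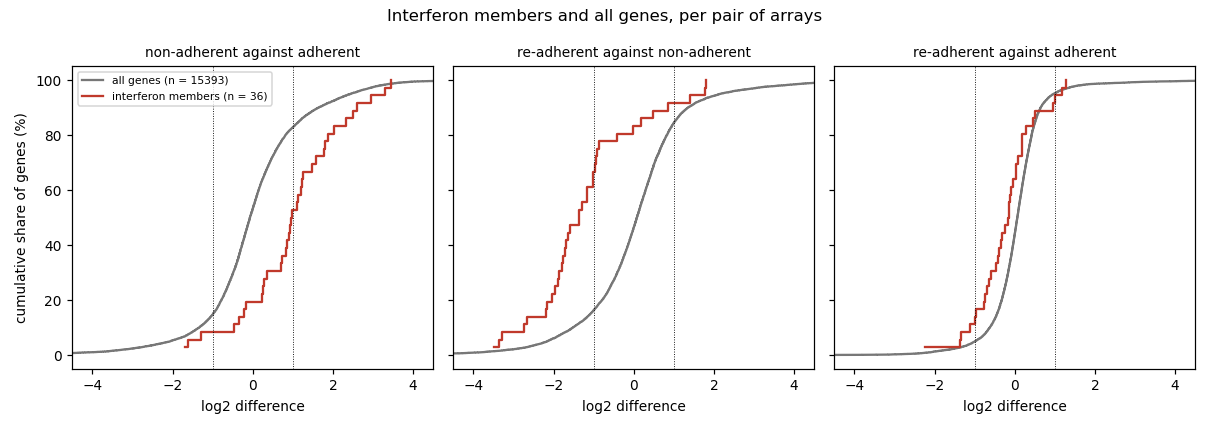
Cumulative share of genes against the log2 difference for the 3 pairs of arrays, for all 15393 measured genes (grey) and the 36 interferon genes (red), with dotted lines at 2-fold. The red curve lies to the right of the grey curve for most of its length in suspension, with a median of 0.96 against -0.07, to the left on return to plastic, and close to it for re-adherent against adherent cells, where the medians are -0.16 and 0.06.

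The cytosolic sensors came first in the pathway. Dhx58 encodes LGP2, a regulator of the RIG-I and MDA5 sensors, and its relative signal was 28.7% in adherent, 99.3% in non-adherent and 29.2% in re-adherent cells. It was higher in suspension by 1.79 ± 0.21 (log2 difference and technical error). Zbp1, a sensor of left-handed nucleic acid, stood at 85.3%, 164% and 50.4% in the same order, a step of 0.94 up and of 1.70 down that left it 0.76 lower than in adherent cells. Ifih1, which encodes MDA5, differed by 0.83 and then by -0.93, inside 2-fold in each pair. The direction of Ddx58, which encodes RIG-I, was not settled: its brighter probe differed by -0.34 in suspension and its other probe by 0.66, so that the mean of both was 0.16.

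None of the 4 transcription factors of the pathway was beyond 2-fold in suspension, where their differences were 0.73 to 0.97. Irf7, which amplifies interferon production, had relative signals of 14.5%, 27.3% and 10.5% in adherent, non-adherent and re-adherent cells. Irf1, a factor shared by both kinds of interferon response, stood at 538%, 968% and 428%. Irf9, the DNA-binding subunit of the STAT complex, stood at 281%, 551% and 272%. Each was highest on the non-adherent array, by 0.91, 0.85 and 0.97 over adherent cells, and over 2-fold lower on the re-adherent array, by 1.37, 1.18 and 1.02. With the normexp background correction the step down fell inside 2-fold for Irf7 (-0.71) and Irf9 (-0.97). Stat2, another subunit of that complex, differed by 0.73 and then by -0.86.

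The oligoadenylate synthetases, whose active members make the messenger that switches on RNase L, were all over 2-fold higher in suspension and over 2-fold lower after it. Oas2 had relative signals of 47.0%, 264% and 23.8%, which is 2.49 ± 0.20 higher and then 3.47 ± 0.21 lower. Oas1a stood at 425%, 1740% and 479%, a step of 2.03 up and 1.86 down that brought it back to within 0.17 of the adherent array. Oasl1, which represses translation of Irf7, went from 82.4% to 244% and down to 38.3%, so it ended 1.11 below the adherent level (-0.96 with the normexp correction). Oasl2, its close relative, ran from 138% to 324% and 70.9%, and ended 0.96 below. Oas3 stood at 4.58%, 9.90% and 0.968%, the last not well above background. It was therefore at least 2.92-fold lower in re-adherent than in non-adherent cells and at least 1.35-fold lower than in adherent cells. With the normexp correction the difference of Oas3 for suspension went from 1.11 ± 0.31 to 0.28, the step back from -3.35 to -0.49 and the net difference from -2.24 to -0.21, so that all 3 lay inside 2-fold. All 5 genes were thus highest on the non-adherent array, and 4 of them were lowest on the re-adherent array.

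**Figure D3:**
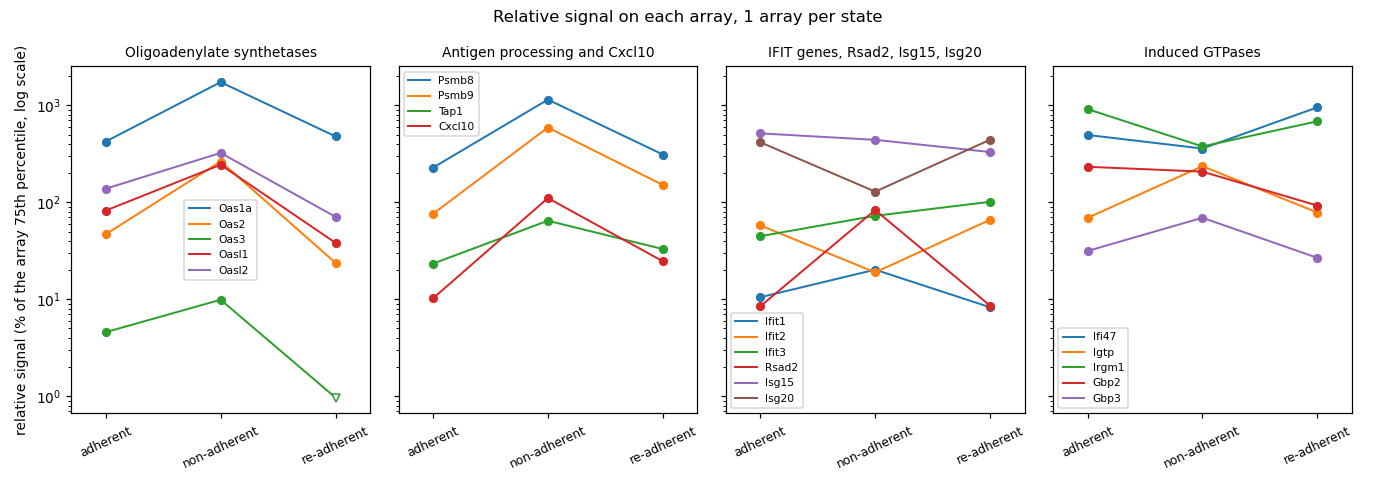
Relative signal of interferon genes in adherent, non-adherent and re-adherent cells (per cent of the 75th percentile of each array, log scale), 1 point per array and 1 line per gene, with an open triangle for a signal not well above background. The oligoadenylate synthetases, Psmb8, Psmb9, Tap1, Cxcl10 and Rsad2 peak on the non-adherent array, Ifit2, Isg20 and Irgm1 are lowest there, and levels of different probes are not to be compared with each other.

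The IFIT genes, whose products bind foreign RNA ends and block translation, did not move as a group. Ifit1 had relative signals of 10.5%, 20.2% and 8.28% in adherent, non-adherent and re-adherent cells, 0.94 higher and then 1.29 lower, with a step down of -0.64 under the normexp correction. Ifit2 went the other way, from 57.9% to 19.0% and back to 66.1%, which is 1.61 ± 0.21 lower and then 1.80 ± 0.21 higher. Ifit3 stood at 44.8%, 72.7% and 101%, and was highest on the re-adherent array, 1.18 ± 0.20 above adherent cells. Scaling to the spike-in probes brought the net difference of Ifit3 to 0.70. The near-identical gene Ifit3b, named after its values were seen, differed by 1.37, 0.08 and 1.45 in the same pairs, and whether its RNA binds the Ifit3 probe was not tested.

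Among other antiviral effectors the neighbouring genes Rsad2 and Cmpk2 were among the most increased. The enzyme of Rsad2 makes a nucleotide that stops viral polymerases. Rsad2 (viperin) had relative signals of 8.46%, 83.3% and 8.61%, a difference of 3.30 ± 0.23 (9.85-fold) into suspension and of -3.28 ± 0.25 back. Cmpk2 stood at 5.95%, 35.9% and 5.35%, or 2.59 ± 0.25 higher and then 2.75 ± 0.29 lower, and its other probe gave 2.94 and -2.45. Bst2, which encodes tetherin and holds budding virus at the membrane, ran from 1226% to 2911% and 932%. Isg20, an exonuclease, was at 417% in adherent, 129% in non-adherent and 443% in re-adherent cells. It was thus 1.69 ± 0.20 lower in suspension and 1.78 ± 0.20 higher after it, the mirror of Bst2, which was 1.25 higher and 1.64 lower.

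The ISG15 system attaches a ubiquitin-like tag to proteins. Isg15, the tag itself, stood at 515%, 442% and 331%, and lay inside 2-fold in all 3 pairs. Usp18, which removes the tag and blocks receptor signalling, differed by 0.24, -0.93 and -0.69. Trim25, a ubiquitin ligase that acts on RIG-I, had relative signals of 1339%, 3096% and 894%, and was 1.21 ± 0.20 higher in suspension (0.98 with spike-in scaling) and 1.79 ± 0.20 lower after it. The 3 genes shared a lower signal in re-adherent than in adherent cells, by 0.64, 0.69 and 0.58.

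Of the remaining induced genes, Parp14, a mono-ADP-ribosyltransferase, had relative signals of 171%, 631% and 155%, which is 1.88 ± 0.20 higher and 2.03 ± 0.20 lower. Xaf1, which promotes apoptosis, stood at 105%, 127% and 63.1%, with differences of 0.27, -1.01 (-0.92 with the normexp correction) and -0.74. Its other probe, well above background on 1 array only, differed by 1.70 in suspension, and that gap of 1.43 was the largest between probes of 1 interferon gene. Ifi44 stood at 7.11%, 9.11% and 2.77%, the last not well above background, so it was at least 2.69-fold lower in re-adherent than in non-adherent cells and at least 2.1-fold lower than in adherent cells. With the normexp correction its differences in these pairs were -0.37 and -0.09, inside 2-fold. Ifi35 differed by 0.28, -0.01 and 0.28. Over the 9 interferon genes with 2 probes, 8 had both probes on the same side of 0 for the step into suspension, with a median gap of 0.16.

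The GTPases induced by interferon-gamma, which attack the vacuoles of intracellular parasites, were divided. Igtp (Irgm3) had relative signals of 69.2%, 236% and 78.6% in adherent, non-adherent and re-adherent cells, 1.77 ± 0.06 higher and then 1.59 ± 0.06 lower. Gbp3 stood at 31.5%, 69.4% and 26.8%, or 1.14 higher and 1.37 lower, and with spike-in scaling its step up was 0.91. Irgm1, which restrains the other GTPases of its family, ran the other way, from 917% to 378% and 686%, and was 1.28 ± 0.20 lower in suspension and 0.86 higher after it. Ifi47 stood at 496%, 359% and 956%, so it was 1.41 ± 0.20 higher in re-adherent than in non-adherent cells and 0.95 above the adherent array. Gbp2 stood at 233%, 208% and 92.7%, little different in suspension and 1.33 ± 0.20 below the adherent level after it. Its step of -1.16 from suspension was -0.99 with the normexp correction. Within this family 2 genes were over 2-fold higher in suspension, 1 was over 2-fold lower and 2 were inside 2-fold, where 17.2% of all genes were higher and 14.7% lower.

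Cxcl10, the chemokine that draws T cells bearing CXCR3, showed the largest step into suspension of all the interferon genes. Its relative signal was 10.2% in adherent, 111% in non-adherent and 24.7% in re-adherent cells. It was 3.44 ± 0.23 higher in suspension (10.8-fold), 2.17 ± 0.21 lower after it, and still 1.27 ± 0.23 above the adherent array (0.77 with the normexp correction).

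The antigen processing genes are neighbours in the MHC region and supply peptides for MHC class I. Psmb9, a subunit of the immunoproteasome, had relative signals of 76.1%, 592% and 152%, a difference of 2.96 ± 0.20 (7.78-fold) into suspension and of -1.97 ± 0.20 back. Psmb8, another immunoproteasome subunit, stood at 228%, 1149% and 312%, or 2.33 higher and 1.88 lower. Tap1, a subunit of the peptide transporter, stood at 23.4%, 64.7% and 33.0%, or 1.47 ± 0.07 higher and 0.97 ± 0.07 lower. All 3 were higher in suspension by over 2-fold, and back on plastic they lay 0.99, 0.45 and 0.50 above the adherent array. With spike-in scaling those last differences were 0.52, -0.03 and 0.02.

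Re-adherent and adherent myofibroblasts were compared to ask how far the interferon genes came back. In that pair 30 of the 36 genes lay inside 2-fold, against 13894 of all 15393 genes. Cxcl10 and Ifit3 were over 2-fold higher (5.56% of the interferon genes, against 4.84% of all genes), and Oas3, Oasl1, Ifi44 and Gbp2 were over 2-fold lower (11.1%, against 4.9%). At 4-fold 0 were higher, against 1.36% of all genes, and 1 was lower (Oas3, with a measured signal not well above background), against 1.29%. The share of higher genes was close to that of all genes. The lower genes were 4 with the scaling used here, 11 with spike-in scaling (12.4% of all genes) and 1 with the normexp correction (1.21%). The sign of this small difference turned between settings for Dhx58, Ifit2, Oas1a, Rsad2, Cmpk2, Isg20, Ifi35, Igtp and Psmb8. Directions for the 20 genes beyond 2-fold in suspension, the 27 beyond 2-fold after it and the 6 beyond 2-fold in this last pair were the same under every setting that measured them, 11 for each gene but Oas3 and Ifi44, which the filter on all 3 arrays dropped and which had 10.

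The rest of the pathway was read from lists of its other genes. Of 11 interferon genes proper, 5 could be measured, and Ifnb1, Ifng, Ifna4, Ifne and Ifnk were not above background on any array. The 5 measured ligand genes (Ifna1, Ifna2, Ifna5, Ifna12 and Ifnl3) differed by -1.13 to 0.21 in suspension, and only Ifna5 was beyond 2-fold. Their relative signals lay between 5.41% and 32.5%. The Ifna genes are near copies of each other, and their probes may share RNA. In suspension none of the 5 was over 2-fold higher, against 17.2% of all genes, and 1 was over 2-fold lower, against 14.7%. Whether interferon was made in these cultures was not tested.

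All 6 receptor genes had higher signals in suspension, 3 of them by over 2-fold, where 17.2% of all genes were. Ifnar1, a subunit of the type I receptor, had relative signals of 329%, 860% and 325%, or 1.39 higher, and its partner Ifnar2 differed by 0.74. The interferon-gamma receptor genes Ifngr1 and Ifngr2 differed by 0.87 and 0.89. Il10rb, shared by type III interferon and interleukin-10 receptors, ran from 216% to 891% and 256%, or 2.04 higher. Ifnlr1, its partner for type III interferon, was measured well above background in non-adherent cells only, at 2.52%, too dim there for a bound on its fold. It is counted among the 3, but the filter admitted it through the state where it was higher. The call beyond 2-fold thus rests on Ifnar1 and Il10rb.

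The shares of all genes beside the next counts are 17.2% higher and 14.7% lower in suspension, and 16.3% lower and 15.6% higher after it. Downstream of the receptors, 4 of 10 signal transduction genes were over 2-fold higher in suspension and 0 lower, led by Ptpn6 (SHP-1, a phosphatase of blood cells) at 3.05, Tyk2 at 1.61, Socs1 at 1.15 and Pias1 at 1.05. Among 18 further sensing genes 7 were over 2-fold higher and 0 lower, led by the kinase gene Ikbke at 2.61 and by Irf5 at 2.56, with Ifi204 at 1.94 and Aim2 at 1.32. Irf8, a factor of myeloid cells, was 2.80 higher. Irf4 was above background in non-adherent cells only, at least 4.21-fold higher there than in adherent cells. Of 37 measured genes on a list of other interferon-stimulated genes, 22 were over 2-fold higher in suspension and 1 lower, with a median of 1.13. On return to plastic 21 of them were over 2-fold lower and 1 higher, with a median of -1.41. Slfn2 differed by 2.74 and Ifitm1 by 2.20, while Gbp4 and Epsti1, dim on the adherent array, were at least 1.71-fold and 4.25-fold higher. Of 12 other genes of MHC class I presentation, 9 were over 2-fold higher and 0 lower, among them the transactivator Nlrc5 at 2.83, the heavy chains H2-D1 at 2.12 and H2-K1 at 1.96, and Tapbp at 1.82. These lists lay on the same side as the interferon genes in suspension, with the ligands the exception.

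**Figure D4:**
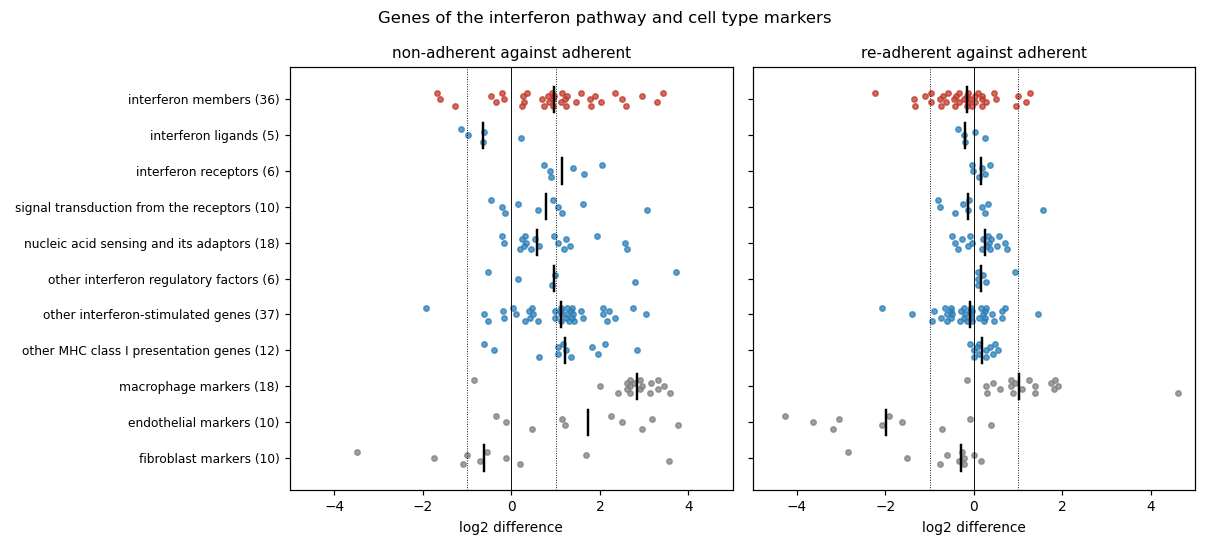
Log2 differences of the interferon genes (red), of other genes of the interferon pathway (blue) and of marker genes of 3 cell types (grey), 1 point per gene with black bars at the medians and the number of measured genes in brackets. In suspension the interferon genes have a median of 0.96 and the macrophage markers a median of 2.83, and in re-adherent cells the medians are -0.16 and 1.01 relative to adherent cells.

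Markers of other cell types were read from the same arrays, and their lists did not all move alike. Of 20 macrophage markers 18 were measured, all well above background on all 3 arrays (Cd68 and Cd163 were not measured). In suspension 17 of the 18 were over 2-fold higher, against 17.2% of all genes, with a median of 2.83. Their summed relative signal was 264, 1690 and 552 multiples of the 75th percentile in adherent, non-adherent and re-adherent cells. Ptprc, which encodes CD45, had relative signals of 54.6%, 350% and 98.2%, in cells depleted of CD45. On return to plastic 16 of the 18 were over 2-fold lower, against 16.3% of all genes. Of the 18, 9 remained over 2-fold above the adherent array, against 4.84% of all genes. Itgam went the other way in suspension, at -0.84, and Cx3cr1 rose further on return to plastic, by 1.95. Their part in the differences of the interferon genes was not tested, and in a bulk sample more cells of a type and more RNA per cell cannot be told apart. Endothelial markers (10 of 10 measured) had a median of 1.73 in suspension and of -1.99 for re-adherent against adherent cells, with sums of 23.8, 38.9 and 22.3. Dendritic cell markers (5 of 8 measured) summed to 162, 155 and 152, a sum carried by the Siglech probe. Itgax at 3.02 and Batf3 at 2.22 were the 2 over 4-fold higher in suspension, against 7.61% of all genes. Siglech differed by -0.17 and Zbtb46 by -0.61. The median of 0.60 was the value of Ccr9, which was well above background in non-adherent cells only and at least 1.1-fold higher there. Neutrophil markers (3 of 6) summed to 97.9, 86.4 and 78.4, carried by the Csf3r probe, with a median of 0.06 and S100a8 at 1.44. Lymphocyte markers (6 of 12) summed to 3.63, 5.46 and 4.68, with a median of 1.68 in suspension and 2 of the 6 below 0. Cd2, Klrb1c and Cd79b were well above background in non-adherent cells only, at least 1.68-fold, 1.49-fold and 4.21-fold higher than in adherent cells. The filter admitted these genes through the state where they were higher, and the lymphocyte median rests in part on them. Of the markers well above background on all 3 arrays, Cd3e differed by -0.16 and Nkg7 by 0.90. Cd3d, Cd3g, Cd79a, Ms4a1 and Ifng were among those not measured. Cardiomyocyte markers (6 of 7) summed to 1.24, 2.04 and 3.37, carried by the Tnnt2 probe at 91.1%, 137% and 304%. Their median for re-adherent against adherent cells was 0.02, with 3 of the 6 below 0. The fibroblast markers of the labelled cell type (10 of 10) were well above background on all arrays, with sums of 1120, 895 and 842 that the bright collagen probes dominate. In suspension 4 of them were over 2-fold lower, against 14.7% of all genes, among them Thy1 at -3.50. Lum at 3.56 and Dcn at 1.70 were the 2 over 2-fold higher, against 17.2% of all genes. The 6 contractile genes of myofibroblasts summed to 1750, 21.1 and 1730.

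The motif search was set beside the differences to see whether the genes with the element moved alike. The 15 genes with an ISRE core had a median difference of 0.94 in suspension, with 7 over 2-fold higher and 1 over 2-fold lower, and ranged from -1.28 (Irgm1) to 3.44 (Cxcl10). The 16 measured genes whose window lacked it also had a median of 0.94, with 7 higher and 2 lower, and ranged from -1.69 (Isg20) to 2.96 (Psmb9). Of all genes 17.2% were over 2-fold higher in suspension and 14.7% over 2-fold lower. The 8 genes with a GAS core had a median of 1.05, and the 23 without it 0.94. The sequences printed above show the same spread, since Isg15 with 3 overlapping matches differed by -0.22 and Irgm1 with 2 by -1.28. A window without a match says only that these letters are not in these bases.

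**Figure D5:**
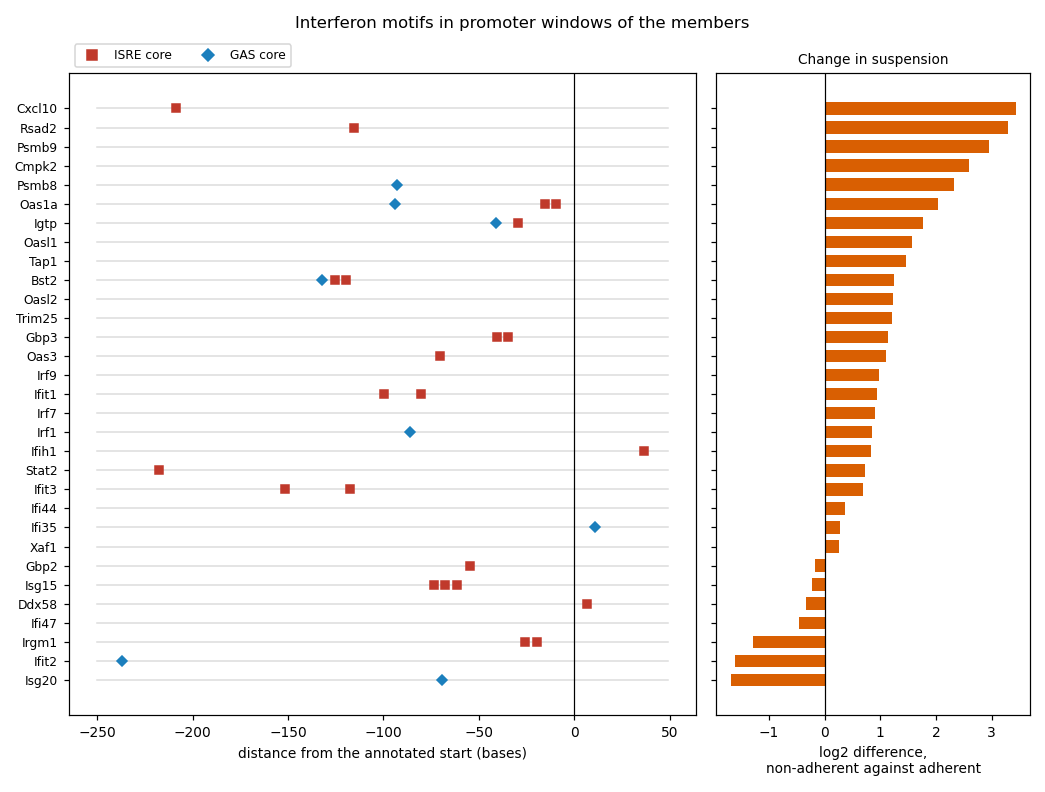
Positions of ISRE core (red squares) and GAS core (blue diamonds) matches in the window of 250 bases before to 50 after the first listed start of each measured interferon gene with a window, ordered by the log2 difference of non-adherent against adherent cells (bars, right). Genes with and without a red square occur at both ends of the order, from Cxcl10 at 3.44 to Isg20 at -1.69.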

How the data were processed

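RNA from adherent, non-adherent and re-adherent myofibroblasts was labelled with Cy3 and hybridised to 1 array per state, all on the same slide and in the same scan per the file headers. The deposited scanner output held spot intensity from Agilent Feature Extraction 10.10.1.1, background-subtracted and detrended by the authors' software, on a linear scale with an error and flags for each spot. The series matrix deposited by the authors held the same intensity times 1 constant per array and was used as an alternative. No columns of other series were present (0).

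Each array held 62976 spots, 59305 of them not controls. Spots flagged as outliers (154, 180 and 175 for adherent, non-adherent and re-adherent cells) were left out, none was saturated, and 58.1%, 59.9% and 53.9% were well above background. The log2 signal was reduced by the array's 75th percentile (651, 697 and 541 units), and spots of a probe were averaged. Of 55681 probes, 27235 were named through RefSeq accessions of GRCm38.p6. The array was designed on an earlier assembly, so only the promoter windows carry coordinates. Both RefSeq tables are those of GRCm38.p6. A gene was taken from its brightest probe among those well above background on at least 1 array. The rule for Mx1 and Mx2 gave no probe, since the table lists both without an accession that the array names.

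With 1 array per group no test was possible, and the number of arrays limits the precision. Genes past 2-fold were counted beside the same share of all genes, with 4-fold as an alternative. Where a signal was not well above background, the fold was taken against whichever was higher, that signal or the dimmest signal above background on its array, after scaling, and is written as at least that fold. Members past 2-fold in any pair are given on every array and the rest by differences, except Isg15, whose promoter is shown. From other pathway lists the ligands, receptors and up to 4 genes per list are named, and some listed genes are not reported here. The members and all lists were chosen with earlier results of these data known. Alternatives were quantile normalisation, no scaling, spike-in scaling (202 spots), normexp correction (offset 50, on the median signal and median background, since the files used here held no mean signal), the authors' values, 2 other filters, a floor for low signals, the mean of probes and the removal of bright patches. Motifs were searched on both strands of the promoter windows. Counts and differences were tested on simulated data. Python 3.11.15, numpy 2.4.6, pandas 2.3.3, scipy 1.17.1, R 4.3.3 and limma 3.58.1 were used.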

Additional observations from a re-analysis of the deposited data

How the results depend on the processing

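No paired analysis was possible because a single array stood for each group, and for the same reason no replicate could be left out. In suspension the counts of 17 higher and 3 lower interferon genes stayed within 1.5 times under every alternative to the 2-fold threshold's scaling, filter and correction, with 13 higher under spike-in scaling and 21 with no scaling as the ends of the range. With the threshold at 4-fold, 7 interferon genes were higher and 0 lower in suspension, against 7.61% and 5.34% of all genes. For re-adherent against non-adherent cells 0 were higher and 8 lower, against 5.7% and 6.05%. The median of that pair relative to all genes moved from -1.45 to -1.11 with the normexp correction. Re-adherent against adherent cells moved most. The 2 higher genes became 1 with no scaling (3.14% of all genes), 0 with spike-in scaling (2.27%) and 1 with the normexp correction (2.14%). At 4-fold they became 0 (1.36%). The 4 lower genes became 8 with no scaling (7.83% of all genes), 11 with spike-in scaling (12.4%) and 1 with the normexp correction (1.21%). They became 6 with the authors' values (6.52%), 2 with the filter on all 3 arrays (2.49%) and 1 at 4-fold (1.29%). The median of all genes was moved, for the 3 pairs in the order given in the report, by 0.10, -0.36 and -0.27 with no scaling, by -0.23, -0.25 and -0.48 with spike-in scaling, by 0.10, -0.27 and -0.18 with the authors' values, and by -0.14, 0.19 and 0.10 without a filter. No gene beyond 2-fold changed sign under any of them. The cause of the other changes was not tested. The dimmest signal well above background was 2.57%, 2.01% and 3.39% of the 75th percentile for adherent, non-adherent and re-adherent cells, which limits what could be read for Oas3 and Ifi44.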
